A study of Mus musculus with 15 samples.

Results

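Expression of 48 genes of mitosis was measured in mouse choroid plexus carcinoma, choroid plexus papilloma and normal choroid plexus. The set holds mitotic kinases and their cyclins, the spindle checkpoint, the machinery that holds sister chromatids together and releases them, kinetochores, condensin, and the spindle. It was drawn up as a list of 50 genes by function, with earlier results of these data known, so its counts are descriptions. A gene was kept where a probe set was paired with its symbol alone, with the brightest such probe set standing for the gene. That gave 48 of the 22180 genes that could be tested on these arrays. Ccnb1 and Ncapg were not analysed here, since neither had a probe set to itself. Each group held 5 arrays, labelled as biological replicates, on a mixed C57Bl/6 and 129 background. Carcinomas came from Atoh1-Cre; Myc/Myc; p53fl/fl mice, papillomas from Atoh1-Cre; Myc/Myc mice, and normal choroid plexus from Myc/Myc; p53fl/fl mice that carried no Cre. Carcinoma and normal tissue thus share both floxed p53 alleles and differ in Cre, whereas papilloma differs from normal tissue both in Cre and in the p53 alleles, and these cannot be told apart. Cre is driven by Atoh1 sequence, Atoh1 being a transcription factor of the embryonic rhombic lip and cerebellar granule neuron progenitors, and all groups carried the Myc alleles. Tumours were taken when the mice showed signs of disease, and the labels state no ages.

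The choroid plexus is the epithelium of the brain ventricles that secretes cerebrospinal fluid, and its mature cells rarely divide. Entry into mitosis is driven by Cdk1 bound to A- and B-type cyclins, and Polo and Aurora kinases then build the spindle. The spindle checkpoint keeps the anaphase-promoting complex (APC/C) inactive until every kinetochore is attached. The APC/C with Cdc20 then destroys securin, the product of Pttg1, and cyclin B, which frees separase, the product of Espl1, to cut the cohesin that holds sister chromatids together. Most of these genes are transcribed late in the cell cycle under the MuvB complex with B-Myb (Mybl2) and Foxm1, through the cell cycle homology region (CHR) and CCAAT boxes of their promoters.

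Values are log2 intensities per probe set as summarised by RMA, so 1 unit is a 2-fold difference, and the median over all probe sets was 6.79 to 6.90 per array. Levels of different genes come from different probes and were not compared. Myc averaged 8.46 ± 0.34 in carcinomas, 8.26 ± 0.17 in papillomas and 7.65 ± 0.09 in normal tissue (SD, n = 5 each), and it was higher in both tumour types (limma adjusted p = 0.000166 for carcinoma and 0.00228 for papilloma). Trp53 was not analysed here. The epithelial marker Ttr averaged 14.46 in carcinomas, 14.47 in papillomas and 14.56 in normal tissue. It lay near the highest value of any probe set per array (14.48 to 14.58). The mean of 8 choroid plexus epithelial markers was 12.25 to 12.70, 12.46 to 12.70 and 12.96 to 13.02 in the arrays of these groups. Of these 8, 5 were lower in carcinoma and 4 in papilloma at an adjusted p under 0.05, and 0 were higher. Over all genes 19.2% and 16.3% were lower. Folr1 had the largest difference of the 8 (-1.19 in carcinoma and -0.73 in papilloma). Atoh1 averaged 6.73 in carcinomas, 6.87 in papillomas and 6.76 in normal tissue, near the median of all probe sets. Normal arrays 2 to 5 held both Xist (10.69 to 12.48), the transcript of the inactive X chromosome, and the Y-linked Uty, Eif2s3y and Kdm5d (mean 7.72 to 9.74), whereas each tumour array held either, and the labels do not say whether tissue of several mice was pooled. Papilloma arrays 2 and 4 stood apart in neuronal markers, with means of 10.17 and 9.21 over 6 genes against 7.37 to 7.82 in the other papillomas. The counts over the 48 genes, and papilloma counts by role, are therefore also given with normal array 1 as the sole normal sample, and counts over the 48 genes in comparisons with papilloma also without papilloma arrays 2 and 4. Counts of cell type markers, those of the epithelium among them, rest on all 5 normal arrays. In bulk tissue, fewer cells of a type and less RNA per cell cannot be told apart.

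Nearly the whole set was higher in carcinoma than in normal choroid plexus. Of the 48 genes, 47 were higher and 0 lower at an adjusted p under 0.05, where 18.7% of all genes tested were higher and 19.2% lower. Of these 47, 43 were at least 2-fold higher, against 4.41% of all genes, and 0 were at least 2-fold lower, against 4.45% of all genes. In 46 genes every carcinoma array was above every normal array, against 14.6% of all genes. The median log2 difference was 2.42 over the 48 genes and -0.02 over all genes. The gene that did not pass was Pttg1, whose product is securin. Left with normal array 1 alone, whose spread was then taken from the tumour groups, the fit still called 43 of the 48, all among the 47, with a median of 2.32, where 16% of all genes were called.

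**Figure D1:**
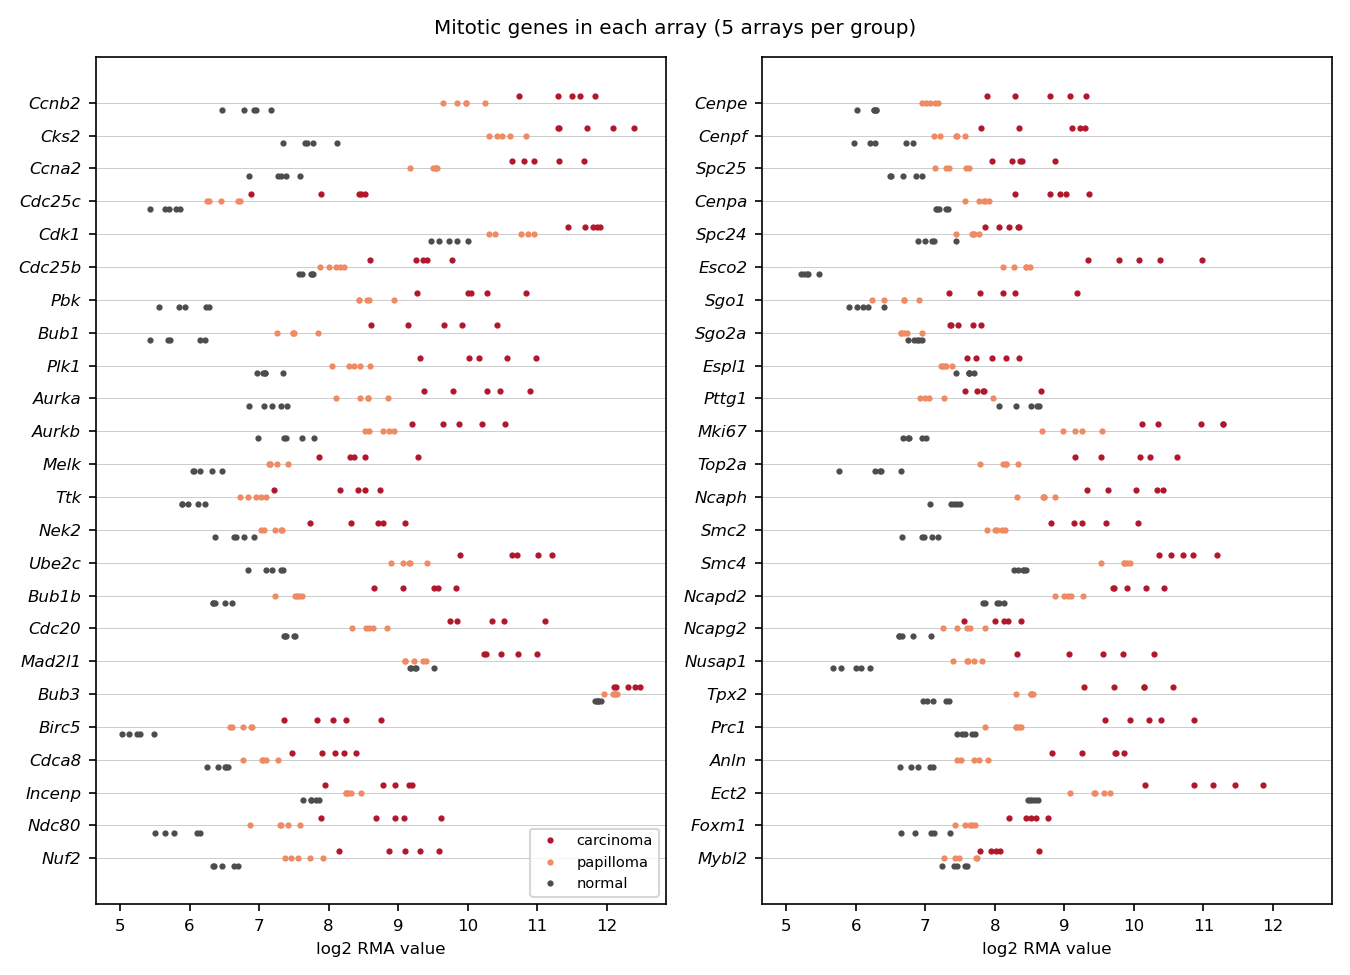
Log2 RMA value of each of the 48 mitotic genes in every array (x axis), genes down the page by role, with carcinoma, papilloma and normal arrays as points from top to bottom within a gene. Most genes show 3 separate clouds with carcinoma at the right, and in Pttg1 the normal arrays (8.05 to 8.64) lie to the right of all papillomas and of 4 carcinomas.

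In papilloma the rise was smaller and 2 genes went the other way. Of the 48 genes, 40 were higher and 2 lower than in normal tissue, where 17% of all genes were higher, 16.3% lower and 33.2% changed in either direction. Of the 40, 24 were at least 2-fold higher, against 3.44% of all genes, and 1 of the 2 was at least 2-fold lower, against 4% of all genes. Every papilloma array was above every normal array in 42 genes, against 16.3% of all genes, and below them in 2 genes, against 15.8% of all genes. The median difference was 0.99, and 0.01 over all genes. The genes that fell were Pttg1 and Espl1, and the 6 that did not pass in either direction were Cdc25b, Nek2, Mad2l1, Sgo1, Sgo2a and Mybl2. The fit pooled the spread of all 3 groups. Median SDs of the 48 genes were 0.48 in carcinomas, 0.18 in papillomas and 0.17 in normal tissue. Cdc25b and Sgo1 passed in a fit on papilloma and normal arrays alone, and Nek2 passed under several alternatives, as given below. Without papilloma arrays 2 and 4 the calls numbered 39, all among the 42, with 30.3% of all genes called. With normal array 1 as the sole normal sample they numbered 16, all higher, with 12.3% of all genes called and a median of 0.92. These 16 were Ccna2, Ccnb2, Cks2, Pbk, Bub1b, Ube2c, Birc5, Spc24, Esco2, Ncapg2, Ncapd2, Ncaph, Smc4, Top2a, Mki67 and Tpx2.

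Carcinomas exceeded papillomas in 45 of the 48 genes and were lower in 0, where 6.24% of all genes were higher and 5.17% lower in carcinoma. Of these 45, 35 were at least 2-fold higher, against 1.35% of all genes, and 0 were at least 2-fold lower, against 0.753% of all genes. Every carcinoma array was above every papilloma array in 44 genes, against 4.52% of all genes, and below in 0, against 3.39% of all genes. The median difference was 1.34, and -0.03 over all genes. The genes that did not pass were Bub3, Incenp and Pttg1. Without papilloma arrays 2 and 4 the calls numbered 43, of which 42 were among the 45, and 7.16% of all genes were called. The 3 comparisons share their samples in pairs, so their counts are not independent of each other.

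**Figure D2:**
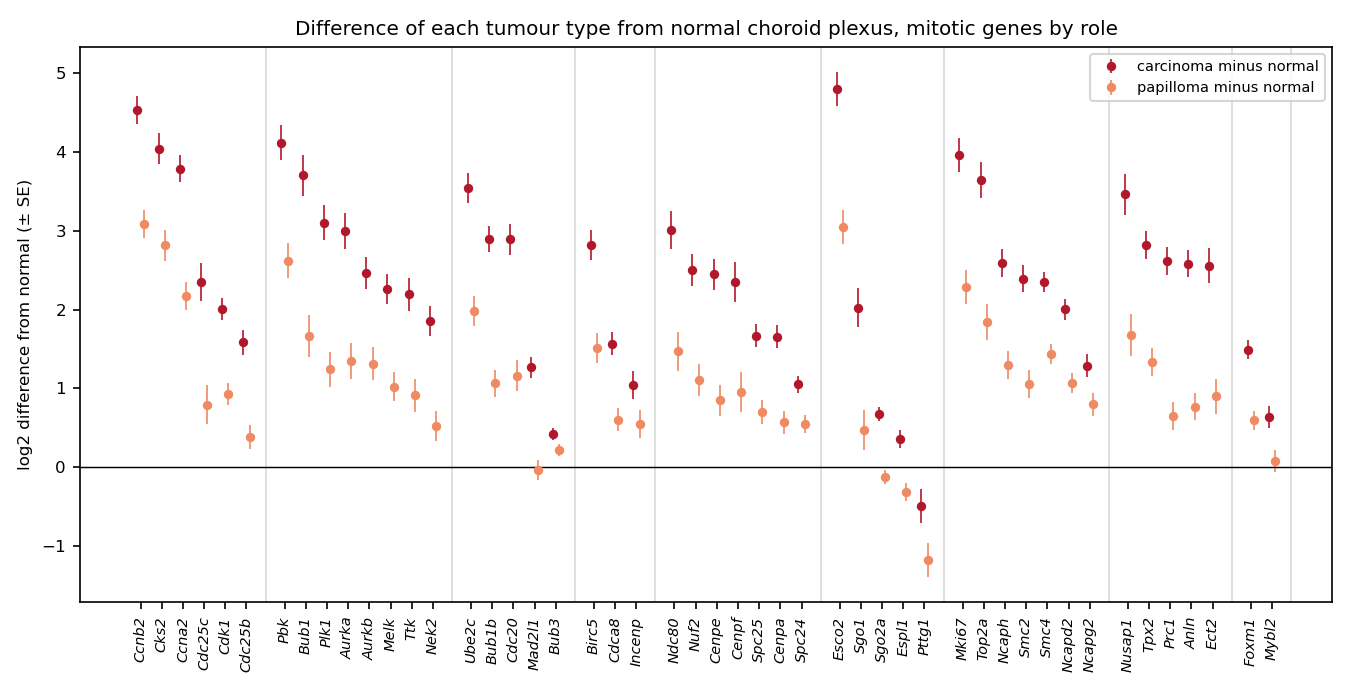
Log2 difference from normal choroid plexus (y axis, ± SE of the fit over all 15 arrays) for carcinoma (dark points) and papilloma (light points), with the 48 genes grouped by role along the x axis. Esco2 (4.80 in carcinoma) and Ccnb2 (3.08 in papilloma) are highest, and Pttg1 (-1.18) and Espl1 (-0.32) are below 0 in papilloma.

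Promoter sequences were read for the genes that RefSeq's table of GRCm38.p6 lists, which held 42 promoters of 38 of the 48 genes, each from 250 bases before to 50 after the transcription start. They were searched on both strands for the CHR as TTTGAA or TTCGAA, for CCAAT, and for the E2F motifs TTCCCGC and TTGGCGC. A CHR was present in 29 of 42 promoters (69%), and in 19.2% of all 32851 promoters of the table. CCAAT was present in 31 (73.8%), and in 37.4% of all promoters. Both together were present in 26 (61.9%), and in 7.52% of all promoters. An E2F motif was present in 8 (19%), and in 6.81% of all promoters. The median carcinoma minus normal difference was 2.47 in the 26 genes with a CHR and 2.35 in the 12 without, the papilloma minus normal medians were 0.94 and 0.93, and the carcinoma minus papilloma medians 1.5 and 1.3. For CCAAT the carcinoma minus normal medians were 2.39 in the 27 genes with it and 2.51 in the 11 without, and for E2F 2.01 in 7 and 2.45 in 31. The windows below hold the 150 bases before the start, with CCAAT and the CHR in capitals (on either strand, so that CCAAT on the reverse strand reads ATTGG). They are shown because Ccnb2 rose strongly in both tumour types, whereas Espl1 and Pttg1 were the genes lower in papilloma and Mad2l1 had a difference near 0 there. The windows lie at chr9:70421555-70421704 (reverse strand, Ccnb2), chr15:102296143-102296292 (forward strand, Espl1), chr11:43425982-43426131 (reverse strand, Pttg1) and chr6:66535071-66535220 (forward strand, Mad2l1).
Ccnb2: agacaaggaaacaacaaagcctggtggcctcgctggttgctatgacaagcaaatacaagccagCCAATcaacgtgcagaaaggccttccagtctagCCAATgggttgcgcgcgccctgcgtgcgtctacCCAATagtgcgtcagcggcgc
Espl1: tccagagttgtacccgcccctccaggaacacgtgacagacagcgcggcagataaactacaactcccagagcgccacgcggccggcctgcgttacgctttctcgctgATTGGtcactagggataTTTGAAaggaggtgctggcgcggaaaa
Pttg1: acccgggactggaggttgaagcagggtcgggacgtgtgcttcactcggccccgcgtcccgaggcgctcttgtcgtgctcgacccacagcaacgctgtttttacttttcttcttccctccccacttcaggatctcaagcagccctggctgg
Mad2l1: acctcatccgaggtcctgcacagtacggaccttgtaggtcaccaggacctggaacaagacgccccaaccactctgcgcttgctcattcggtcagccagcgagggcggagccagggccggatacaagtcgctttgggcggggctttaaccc
Ccnb2 had 3 CCAAT boxes, at positions -87, -54 and -21, and its CHR matches lay outside the window at positions -167 and 5, counted from the start. Espl1 had 1 CCAAT and 1 CHR, at positions -44 and -27. The letters of the 3 motifs were absent from the Pttg1 and Mad2l1 windows and from the rest of their 300 bases. They were absent likewise from the promoters of Mybl2 and of Birc5, Melk, Nuf2 and Nusap1, and the last 4 genes rose in both tumour types, by 1.02 to 1.68 in papilloma. These are matches of letters and were not tested as binding sites.

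Among cyclins, Cdk1 and its activators, 6 of 6 genes rose in carcinoma and 5 of 6 in papilloma, or 3 of 6 in papilloma with normal array 1 as the sole normal sample. Ccnb2, a B-type cyclin (probe set 17528586, chromosome 9), measured 11.50, 11.83, 11.30, 11.61 and 10.74 in carcinomas 1 to 5, 9.98, 9.65, 9.85, 9.98 and 10.24 in papillomas, and 6.46, 7.17, 6.79, 6.93 and 6.95 in normal tissue. The 3 groups were separate, with carcinoma 5 the lowest carcinoma. Carcinomas were 23.2-fold above normal tissue (log2 difference 4.53, SE 0.18, adjusted p = 4.56e-11), papillomas 8.47-fold above it (3.08, adjusted p = 2.58e-09), and carcinomas 2.74-fold above papillomas (1.45, adjusted p = 0.000122). Cks2, a small subunit that helps Cdk1 bind its substrates, was at 11.29 to 12.40 in carcinomas, 10.31 to 10.83 in papillomas and 7.35 to 8.12 in normal tissue. Its difference from normal tissue was 4.04 in carcinoma and 2.82 in papilloma, and a probe set with other probes (17287330) gave 3.52 and 2.32. Ccna2, cyclin A, rose 13.8-fold in carcinoma and 4.51-fold in papilloma.

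Cdk1 itself, the kinase these cyclins activate, had smaller log2 differences than Ccna2, Ccnb2 and Cks2. It averaged 11.74 ± 0.18 in carcinomas, 10.66 ± 0.29 in papillomas and 9.73 ± 0.21 in normal tissue, a 4.03-fold rise in carcinoma (2.01, SE 0.14, adjusted p = 1.45e-08) and a difference of 0.93 in papilloma (adjusted p = 6.47e-05). Cdc25c, a phosphatase that removes the inhibitory phosphates from Cdk1, rose by 2.35 in carcinoma and by 0.79 in papilloma (adjusted p = 0.0205), where it missed the threshold with normal array 2 or papilloma array 5 removed (adjusted p = 0.0527 and 0.0502). Cdc25b, its relative that starts the process, measured 9.25, 9.78, 8.60, 9.41 and 9.35 in carcinomas, 8.22, 8.0, 7.88, 8.17 and 8.10 in papillomas, and 7.57, 7.62, 7.77, 7.75 and 7.76 in normal tissue. All carcinomas were above all papillomas, and all papillomas above all normal arrays. Cdc25b rose in carcinoma (1.58, SE 0.16, adjusted p = 6.69e-07), while the papilloma difference of 0.38 did not pass (adjusted p = 0.0751). It passed with each array set to a common median (0.43, adjusted p = 0.0379) and in a fit on papilloma and normal arrays alone (adjusted p = 0.00187).

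All 8 mitotic kinases rose in carcinoma, and 7 of them in papilloma, where Pbk alone passed against normal array 1. Bub1, a checkpoint kinase that marks centromeric chromatin, had the largest carcinoma minus papilloma difference of the 48 genes. It measured 9.67, 10.43, 9.14, 9.92 and 8.60 in carcinomas, 7.84, 7.25, 7.48, 7.49 and 7.51 in papillomas, and 6.23, 5.72, 5.43, 5.69 and 6.16 in normal tissue. No groups overlapped, and carcinomas spread over the widest range. The difference was 2.04 between carcinoma and papilloma (SE 0.27, adjusted p = 0.000191), 3.70 between carcinoma and normal tissue and 1.67 between papilloma and normal tissue.

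Pbk, a kinase active in mitosis, was at 9.27 to 10.84 in carcinomas, 8.43 to 8.94 in papillomas and 5.56 to 6.28 in normal tissue, a 17.4-fold rise in carcinoma (adjusted p = 1.03e-09) and a 6.14-fold rise in papilloma (adjusted p = 1.6e-07). Plk1, the Polo kinase of mitotic entry and spindle assembly, rose by 3.10 in carcinoma and by 1.24 in papilloma (adjusted p = 2.16e-08 and 0.000329). The spindle pole kinase Aurka rose by 3.0 and 1.34, and Aurkb, the kinase of the chromosomal passenger complex, by 2.47 and 1.31. Ttk, which starts checkpoint signalling at kinetochores, rose by 2.19 and 0.91, and Melk by 2.26 and 1.02. In each of these genes every carcinoma array was above every papilloma array, and every papilloma array above every normal array. Nek2, which helps separate centrosomes, was the kinase whose papilloma minus normal difference did not pass.

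Nek2 measured 8.79, 9.10, 8.32, 8.71 and 7.74 in carcinomas, 7.22, 7.03, 7.32, 7.08 and 7.33 in papillomas, and 6.67, 6.93, 6.64, 6.79 and 6.37 in normal tissue. The papillomas lay above the normal arrays by a narrow margin (7.03 against 6.93). The papilloma difference of 0.52 fell just short of the threshold (SE 0.19, adjusted p = 0.0507) and passed under 7 alternatives (adjusted p = 0.0019 to 0.0488). The carcinoma difference was 1.85 (adjusted p = 1.27e-06).

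Of the 5 genes of the checkpoint and the APC/C, all rose in carcinoma and 4 in papilloma, of which 2, Ube2c and Bub1b, passed against normal array 1. Ube2c, the ubiquitin-conjugating enzyme of the APC/C, averaged 10.70 ± 0.50 in carcinomas, 9.14 ± 0.19 in papillomas and 7.16 ± 0.20 in normal tissue, a difference of 3.54 for carcinoma and 1.99 for papilloma. Cdc20, the APC/C activator that the checkpoint holds back, rose by 2.89 and 1.16, and Bub1b, the BubR1 subunit of the inhibitor of Cdc20, by 2.90 and 1.06. The remaining members of the same inhibitory complex behaved otherwise. Mad2l1, the Mad2 protein that binds Cdc20, measured 10.48, 11.00, 10.23, 10.72 and 10.27 in carcinomas, 9.40, 9.09, 9.23, 9.10 and 9.35 in papillomas, and 9.51, 9.25, 9.26, 9.18 and 9.17 in normal tissue. Carcinomas were all above the other arrays, whereas papilloma and normal arrays overlapped throughout their ranges. Mad2l1 was 2.41-fold above normal tissue in carcinoma (1.27, SE 0.13, adjusted p = 1.21e-06) and 2.47-fold above papilloma (adjusted p = 2.32e-05), and its papilloma minus normal difference was -0.04 (SE 0.13, adjusted p = 0.872), with a sign that turned at a common median, without normal array 1 and without papilloma arrays 2 and 4 (0.01, 0.02 and 0.05).

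Bub3, which docks the checkpoint proteins on kinetochores and also serves in interphase cells, was bright in all groups. It measured 12.30, 12.48, 12.10, 12.41 and 12.14 in carcinomas, 12.14, 12.08, 12.13, 12.13 and 11.97 in papillomas, and 11.87, 11.87, 11.92, 11.87 and 11.83 in normal tissue. Every tumour array exceeded every normal array, and carcinomas and papillomas overlapped. The carcinoma difference was 0.42 (SE 0.08, adjusted p = 0.00032) and the papilloma difference 0.22 (adjusted p = 0.0334). The papilloma call ended with quantile normalization (0.16, adjusted p = 0.0897) and without any of normal arrays 1, 2, 4 or 5 or papilloma arrays 1 to 4 (adjusted p = 0.0552 to 0.0704). The carcinoma minus papilloma difference of 0.20 did not pass (adjusted p = 0.113), except without carcinoma array 3 (0.24, adjusted p = 0.0434).

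The chromosomal passenger complex, which corrects wrong attachments and later guides cytokinesis, is represented here by Birc5, Incenp and Cdca8, and all 3 rose in both tumour types, although in papilloma Birc5 alone passed against normal array 1. Birc5, survivin, averaged 8.05 ± 0.51 in carcinomas, 6.75 ± 0.15 in papillomas and 5.23 ± 0.18 in normal tissue, a 7.05-fold rise in carcinoma (2.82, adjusted p = 9.9e-09) and a 2.86-fold rise in papilloma (1.51, adjusted p = 9.65e-06). Cdca8, borealin, rose by 1.57 and 0.60. Incenp, the scaffold of the complex, measured 8.78, 9.16, 8.95, 9.20 and 7.94 in carcinomas, 8.24, 8.24, 8.33, 8.29 and 8.46 in papillomas, and 7.87, 7.75, 7.82, 7.75 and 7.63 in normal tissue. Carcinoma 5 lay below every papilloma, and the other 4 carcinomas lay above them. Incenp was higher in carcinoma than in normal tissue (1.04, SE 0.18, adjusted p = 0.000173) and higher in papilloma (0.55, adjusted p = 0.0243), which missed the threshold with normal array 5 or papilloma array 5 removed (adjusted p = 0.0559 and 0.0562). Its carcinoma minus papilloma difference of 0.50 did not pass (adjusted p = 0.0869), but did without carcinoma array 5 (0.71, adjusted p = 0.000159). It also passed once each chromosome's median shift was removed (0.61, adjusted p = 0.0219). Incenp lies on chromosome 19, where the median shifts were -0.14, -0.14, -0.05, 0.05 and -0.19 in carcinomas 1 to 5.

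All 7 centromere and outer kinetochore genes rose in both tumour types and were higher in carcinoma than in papilloma. Against normal array 1 alone, 7 of 7 passed in carcinoma and 1 of 7, Spc24, in papilloma. Their median differences were 2.36 for carcinoma against normal tissue, 0.85 for papilloma against normal tissue and 1.40 for carcinoma against papilloma. Ndc80, the subunit of the Ndc80 complex that grips microtubules, averaged 8.85 ± 0.63 in carcinomas, 7.30 ± 0.27 in papillomas and 5.83 ± 0.28 in normal tissue, an 8.06-fold rise in carcinoma. Within that 4-subunit complex the differences were unequal. Ndc80 and Nuf2, which form its microtubule-binding end, rose by 3.01 and 2.51 in carcinoma, against 1.67 for Spc25 and 1.05 for Spc24, which anchor the other end at the kinetochore. In papilloma these differences were 1.47, 1.11, 0.70 and 0.54. Each subunit was read by its own probe set, and the part of unequal probe response in these differences was not tested. Levels of Spc24 were 7.86 to 8.35 in carcinomas, 7.44 to 7.78 in papillomas and 6.90 to 7.43 in normal tissue, so that neighbouring groups nearly touched. Its carcinoma minus papilloma call (0.51, adjusted p = 0.00809) ended without papilloma arrays 2 and 4 (0.45, adjusted p = 0.0564). The kinetochore motor Cenpe rose by 2.45 in carcinoma and 0.85 in papilloma, Cenpf by 2.36 and 0.96, and Cenpa, the centromeric histone H3 variant, by 1.65 and 0.57.

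Genes of sister chromatid cohesion and its release held both the largest rise in carcinoma and the genes that fell in papilloma. Of the 5, 4 rose in carcinoma, whereas 1 rose and 2 fell in papilloma. Against normal array 1 alone, Esco2 rose in papilloma and 0 of the 5 passed as lower. Esco2, which acetylates cohesin during S phase so that it holds sister chromatids, measured 10.38, 10.97, 9.79, 10.07 and 9.34 in carcinomas, 8.44, 8.12, 8.28, 8.45 and 8.51 in papillomas, and 5.26, 5.31, 5.30, 5.47 and 5.21 in normal tissue. The groups were far apart, and the normal arrays were dim and tightly grouped. Esco2 was 27.9-fold above normal tissue in carcinoma (4.80, SE 0.21, adjusted p = 1.32e-10), 8.28-fold above it in papilloma (3.05, adjusted p = 2.01e-08), and 3.37-fold higher in carcinoma than in papilloma (1.75, adjusted p = 0.000113). The carcinoma difference was the largest of the 48 genes.

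Securin and separase, an inhibitor and the protease it restrains, were the genes that were lower in papilloma. Pttg1, securin (probe set 17261944, chromosome 11), measured 7.56, 8.66, 7.75, 7.84 and 7.84 in carcinomas, 7.27, 7.98, 7.0, 6.93 and 7.05 in papillomas, and 8.05, 8.61, 8.30, 8.64 and 8.51 in normal tissue. Every papilloma was below every normal array, 4 carcinomas were also below them, and carcinoma 2 was above them. Pttg1 was 2.26-fold lower in papilloma than in normal tissue (-1.18, SE 0.22, adjusted p = 0.000418). The carcinoma minus normal difference of -0.49 did not pass (SE 0.22, adjusted p = 0.0866), although it did without carcinoma array 2 (-0.68, adjusted p = 0.0102). The carcinoma minus papilloma difference was 0.68 (adjusted p = 0.0523), and it passed without carcinoma array 1 (0.78, adjusted p = 0.0431), without papilloma array 2 (0.87, adjusted p = 0.00914) and without papilloma arrays 2 and 4 (0.82, adjusted p = 0.0288). Papilloma 2, the array with the highest neuronal markers, also had the highest Pttg1 of its group. Papilloma 4, the other papilloma with high neuronal markers, had the lowest Pttg1 of its group (6.93). Neuronal markers were higher in normal tissue (mean 8.82 to 9.36) than in carcinomas (7.45 to 8.21). Carcinoma 2 had the highest Pttg1 of all arrays (8.66). The part of neuronal RNA in Pttg1 was not tested.

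Espl1, separase (probe set 17315352, chromosome 15), measured 7.97, 8.34, 7.60, 8.16 and 7.72 in carcinomas, 7.30, 7.23, 7.27, 7.24 and 7.38 in papillomas, and 7.70, 7.62, 7.44, 7.62 and 7.62 in normal tissue. Papillomas were the lowest throughout, and the carcinoma and normal arrays overlapped. It was the gene of the set called in opposite directions, higher in carcinoma (0.36, SE 0.12, adjusted p = 0.0221) and lower in papilloma (-0.32, SE 0.12, adjusted p = 0.0446), with a carcinoma minus papilloma difference of 0.67 (adjusted p = 0.0014). The carcinoma minus papilloma difference kept its side of the threshold under each of the alternatives run. The rise in carcinoma missed the threshold once normal array 3 (0.32), carcinoma array 2 (0.26) or carcinoma array 4 (0.31) was removed (adjusted p = 0.0539 to 0.0595), and in a fit on carcinoma and normal arrays alone (adjusted p = 0.0541). The papilloma call ended at a common median (-0.27, adjusted p = 0.0687), with quantile normalization (-0.27, adjusted p = 0.0779), and with any single papilloma array, or normal array 1, 2, 4 or 5, removed (-0.34 to -0.29, adjusted p = 0.0508 to 0.0943).

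**Figure D3:**
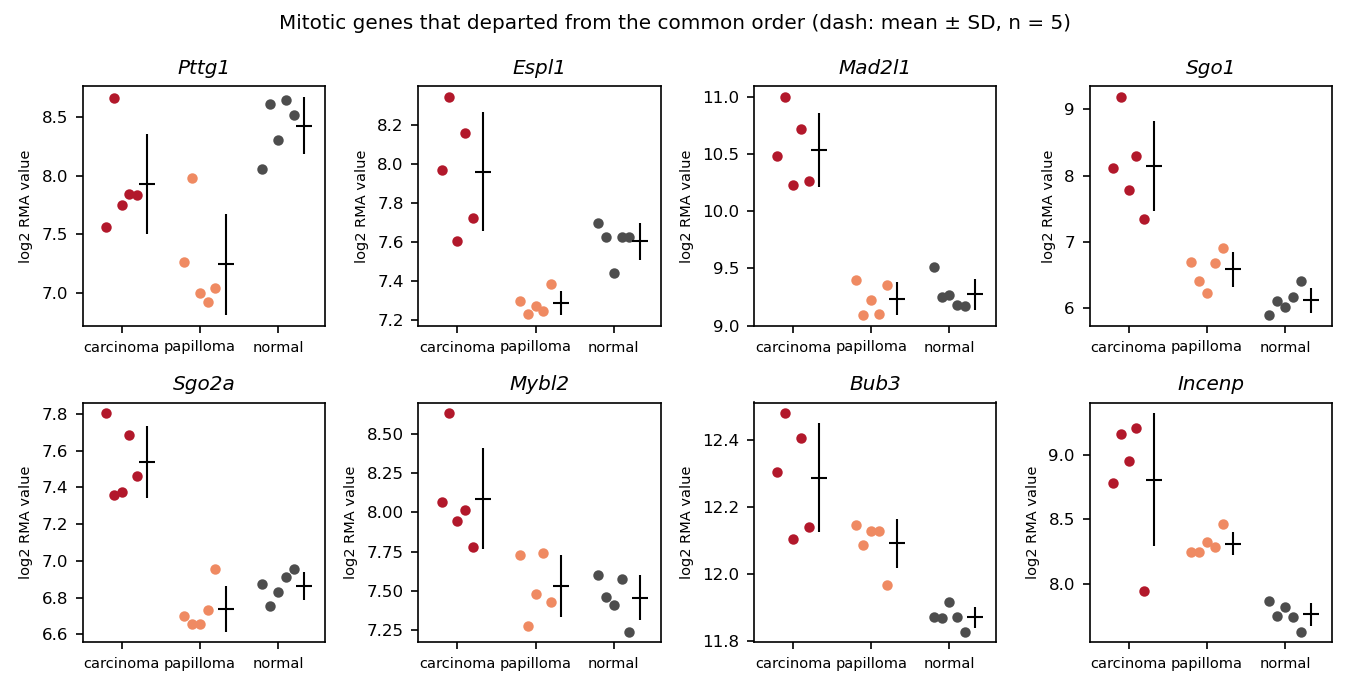
Log2 RMA values (y axis) of 8 mitotic genes by group (x axis), 1 point per array, with the mean ± SD of 5 arrays as a dash and bar. Pttg1 is lowest in papilloma and Espl1 in papilloma too, and in Mad2l1, Sgo2a and Mybl2 papilloma and normal arrays overlap below the carcinomas.

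Both shugoshins, which shield centromeric cohesin from removal, rose in carcinoma, both against normal tissue and against papilloma, and did not pass in papilloma. Sgo1 measured 8.12, 9.19, 7.79, 8.29 and 7.34 in carcinomas, 6.69, 6.41, 6.24, 6.69 and 6.91 in papillomas, and 5.90, 6.11, 6.02, 6.17 and 6.40 in normal tissue. Carcinomas were above all other arrays, and papillomas overlapped with normal tissue. The differences of Sgo1 from normal tissue were 2.02 in carcinoma (adjusted p = 7.55e-06) and 0.47 in papilloma (SE 0.25, adjusted p = 0.179), and the papilloma difference passed in a fit on papilloma and normal arrays alone (adjusted p = 0.0143). Sgo2a measured 7.80, 7.36, 7.38, 7.68 and 7.46 in carcinomas, 6.70, 6.66, 6.66, 6.73 and 6.95 in papillomas, and 6.88, 6.75, 6.83, 6.91 and 6.95 in normal tissue. Carcinomas were again separate, and papilloma and normal arrays were interleaved near the median of all probe sets. The differences of Sgo2a were 0.67 in carcinoma (SE 0.09, adjusted p = 2.3e-05), -0.13 in papilloma (adjusted p = 0.352) and 0.80 between carcinoma and papilloma (adjusted p = 8.03e-05).

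Condensin and other genes of chromosome structure rose together, 7 of 7 in both tumour types, with medians of 2.39 in carcinoma and 1.30 in papilloma, and 6 of 7 passed in papilloma against normal array 1. Mki67, the Ki-67 protein that coats mitotic chromosomes and is the usual stain for dividing cells, averaged 10.80 ± 0.54 in carcinomas, 9.12 ± 0.32 in papillomas and 6.83 ± 0.14 in normal tissue. Its differences were 3.97 in carcinoma (15.6-fold), 2.29 in papilloma (4.89-fold) and 1.68 between carcinoma and papilloma (3.19-fold, adjusted p = 0.000159). Top2a, the topoisomerase that untangles sister chromatids, rose by 3.65 in carcinoma and 1.84 in papilloma. The core condensin ATPases Smc2 and Smc4 rose by 2.39 and 2.35 in carcinoma and by 1.05 and 1.44 in papilloma, and the condensin I subunits Ncaph and Ncapd2 by 2.59 and 2.0 in carcinoma and by 1.30 and 1.07 in papilloma. In all 6 of these genes no array of a group overlapped with another group.

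Ncapg2, a subunit of condensin II, measured 8.13, 8.38, 7.55, 8.19 and 8.0 in carcinomas, 7.46, 7.60, 7.64, 7.25 and 7.86 in papillomas, and 6.62, 6.67, 6.82, 7.08 and 6.63 in normal tissue. Both tumour types were above normal tissue, and carcinoma 3 lay within the papilloma range. Its differences from normal tissue were 1.29 in carcinoma (adjusted p = 3.47e-06) and 0.80 in papilloma (adjusted p = 0.000447). The carcinoma minus papilloma difference of 0.49 (SE 0.15, adjusted p = 0.0435) ended as a call under 13 alternatives (0.40 to 0.51, adjusted p = 0.0577 to 0.194), among them leaving out carcinoma array 1, 2, 4 or 5 or papilloma array 1, 2, 3 or 4.

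The 5 genes of the spindle and cytokinesis rose in both tumour types, and their median carcinoma minus papilloma difference, 1.79, exceeded their median papilloma minus normal difference, 0.90. Against normal array 1 alone, Tpx2 passed in papilloma. Prc1, which bundles the microtubules of the central spindle, measured 10.22, 10.86, 9.95, 10.39 and 9.59 in carcinomas, 8.38, 7.87, 8.31, 8.31 and 8.35 in papillomas, and 7.52, 7.67, 7.72, 7.46 and 7.57 in normal tissue. Carcinomas stood well clear of both other groups, and papillomas were close above normal tissue. Carcinomas were 3.89-fold above papillomas (1.96, SE 0.18, adjusted p = 1e-05) and papillomas 1.57-fold above normal tissue (0.65, SE 0.18, adjusted p = 0.0092). The same order of differences held for Anln, the anillin of the cleavage furrow, at 1.81 between carcinoma and papilloma and 0.77 between papilloma and normal tissue. Ect2, the exchange factor that activates RhoA for furrowing, gave 1.66 and 0.90. In Nusap1, which stabilises spindle microtubules, and Tpx2, the activator of Aurora A, the steps were closer, at 1.79 and 1.68 and at 1.49 and 1.33.

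Of the transcription factors that drive this programme, Foxm1 rose in both tumour types and Mybl2 in carcinoma, and neither passed in papilloma against normal array 1. Foxm1 averaged 8.50 ± 0.21 in carcinomas, 7.60 ± 0.11 in papillomas and 7.01 ± 0.27 in normal tissue, with differences of 1.49 in carcinoma (adjusted p = 1.26e-07) and 0.59 in papilloma (adjusted p = 0.00146). Mybl2 measured 8.07, 8.63, 7.95, 8.01 and 7.78 in carcinomas, 7.73, 7.28, 7.48, 7.74 and 7.43 in papillomas, and 7.60, 7.46, 7.41, 7.58 and 7.24 in normal tissue. The lowest carcinoma was just above the highest papilloma, and papilloma and normal arrays overlapped. Mybl2 differed by 0.63 in carcinoma (SE 0.14, adjusted p = 0.00176), by 0.07 in papilloma (adjusted p = 0.752) and by 0.56 between carcinoma and papilloma (adjusted p = 0.0168). A dimmer Mybl2 probe set (17394003), at 6.49 in carcinomas, 6.55 in papillomas and 6.27 in normal tissue, passed in no comparison, with differences of 0.21, 0.28 and -0.06.

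Cdkn1a, which encodes the inhibitor p21 and is a target of p53, is no mitotic gene. It acts indirectly on the complexes that repress these promoters, and its part in the mitotic genes was not tested. It was at 9.22, 9.56, 9.91, 9.80 and 10.80 in carcinomas, 12.80, 12.74, 12.74, 12.62 and 12.73 in papillomas, and 11.01, 10.58, 10.56, 10.59 and 10.56 in normal tissue. Papillomas were high in every array, and carcinoma 5 had the highest value of the carcinomas. Cdkn1a was lower in carcinoma than in papilloma (log2 difference -2.87, adjusted p = 1.46e-06) and than in normal tissue (-0.80, adjusted p = 0.00571), and higher in papilloma than in normal tissue (2.07, adjusted p = 1.03e-06).

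Carcinomas varied more among themselves in these genes than papillomas or normal tissue did. The median SD over the 48 genes was 0.48 in carcinomas, 0.18 in papillomas and 0.17 in normal tissue, against 0.19, 0.15 and 0.12 over all genes. The mean over the 48 genes was 9.57, 10.01, 9.24, 9.64 and 8.87 in carcinomas 1 to 5, 8.26, 7.97, 8.12, 8.19 and 8.32 in papillomas, and 7.13, 7.13, 7.09, 7.09 and 7.03 in normal tissue. The genes moved together, in that carcinoma 2 was the highest carcinoma in 41 genes and carcinoma 5 the lowest in 38. Among papillomas, array 5 was the highest in 31 genes and array 2 the lowest in 39. Papilloma 2 also had the highest neuronal marker mean of all arrays (10.17), whereas papilloma 4, with a neuronal mean of 9.21, had a mean of the mitotic genes within the range of the others. Of the 9 macrophage markers, 1 was higher in carcinoma than in normal tissue, and their mean was highest in carcinomas 4 and 2 (8.77 and 8.50) and 7.79 to 7.89 in the other carcinomas. The part of neuronal or macrophage RNA in these differences was not tested.

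**Figure D4:**
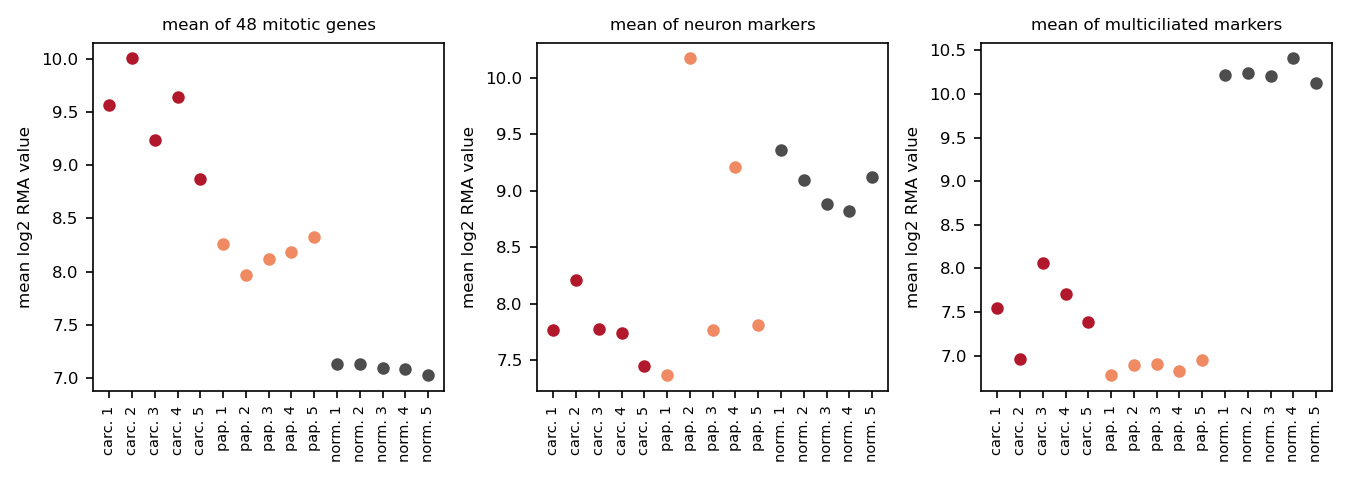
Mean log2 RMA value per array (y axes) of the 48 mitotic genes (left), 6 neuronal markers (middle) and 9 markers of multiciliated cells (right), with arrays along the x axes as carcinomas, papillomas and normal tissue. The mitotic mean runs from 8.87 to 10.01 in carcinomas, 7.97 to 8.32 in papillomas and 7.03 to 7.13 in normal tissue.

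Markers of multiciliated cells and of cell types other than the epithelium also differed between tumours and normal tissue. Their counts are to be read against the shares of all genes called. These shares were 18.7% higher and 19.2% lower in carcinoma, and 17% higher and 16.3% lower in papilloma. Of 9 markers of multiciliated cells, which do not divide, all were lower in both tumour types. Their array means were 6.97 to 8.06 in carcinomas, 6.78 to 6.95 in papillomas and 10.13 to 10.41 in normal tissue. Whether the epithelium itself or other cells carried these markers was not tested. Of 8 endothelial markers, 6 were higher in each tumour type, with array means of 8.75 to 9.17 in carcinomas, 8.56 to 8.98 in papillomas and 7.98 to 8.42 in normal tissue. Of 5 oligodendrocyte markers, 5 were lower in carcinoma and 3 in papilloma, with array means of 7.20 to 7.85 in carcinomas, 7.25 to 8.02 in papillomas and 8.38 to 8.76 in normal tissue. Of 8 markers of fibroblasts and meninges, 4 were lower and 1 higher in carcinoma and 6 lower and 1 higher in papilloma, with array means of 8.95 to 9.29 in carcinomas, 8.64 to 9.11 in papillomas and 10.19 to 10.30 in normal tissue. Granule neuron progenitors, a dividing cell type of the neighbouring cerebellum, had marker means of 8.01 to 8.32, 7.88 to 8.44 and 8.18 to 8.35 in the same groups, and 0 of their 7 markers were higher in either tumour type than in normal tissue. The part of these cell types in the mitotic genes was not tested.

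Background intensity set a limit on the fold values of normal tissue. In carcinomas 0 of the 48 genes had a mean below the median of all probe sets, in papillomas 4 did, and in normal tissue 21 did. The fold changes of genes dim in normal tissue, such as Esco2 (5.31 ± 0.10) and Birc5 (5.23 ± 0.18), are differences of log2 RMA values, which are compressed near background.

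The wider mitotic machinery and its regulators were read from 8 lists with 106 measured genes that are not in the set, Cdkn1a among them. Of these 106 genes, 69 were higher and 11 lower in carcinoma, 55 higher and 11 lower in papilloma, and 49 higher and 4 lower in carcinoma than in papilloma. Over all genes the shares were 18.7% and 19.2%, 17% and 16.3%, and 6.24% and 5.17% in these comparisons. Against normal array 1 alone the median differences of these genes were 0.67 in carcinoma and 0.35 in papilloma. With all arrays the median differences of the 106 genes were 0.58, 0.34 and 0.38 in the 3 comparisons. Spindle motors and cytokinesis genes came nearest to the set, with 20 of 21 higher in carcinoma and 16 of 21 in papilloma, and medians of 2.32 and 0.86. Among them the spindle protein Hmmr rose by 3.57 in carcinoma, the kinesin-5 motor Kif11 by 3.28 and the central spindle protein Racgap1 by 3.26, and in papilloma the chromokinesin Kif4 rose by 2.20. Of 23 genes of the inner kinetochore and the Mis12, Knl1 and Ska complexes, 18 rose and 3 fell in carcinoma, and 14 rose and 2 fell in papilloma. Ska3 rose by 2.94 and Knl1, the platform for the checkpoint proteins, by 2.48 in carcinoma, whereas Ska2 was lower in carcinoma (-0.82) and in papilloma (-0.95). All 7 genes of checkpoint recruitment and silencing rose in carcinoma and 5 in papilloma, with Zwilch (2.0 and 0.91) and Kntc1 (1.93 and 1.09), both of the complex that brings dynein to kinetochores, among them. The counts of each list, here and below, rest on all 5 normal arrays.

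**Figure D5:**
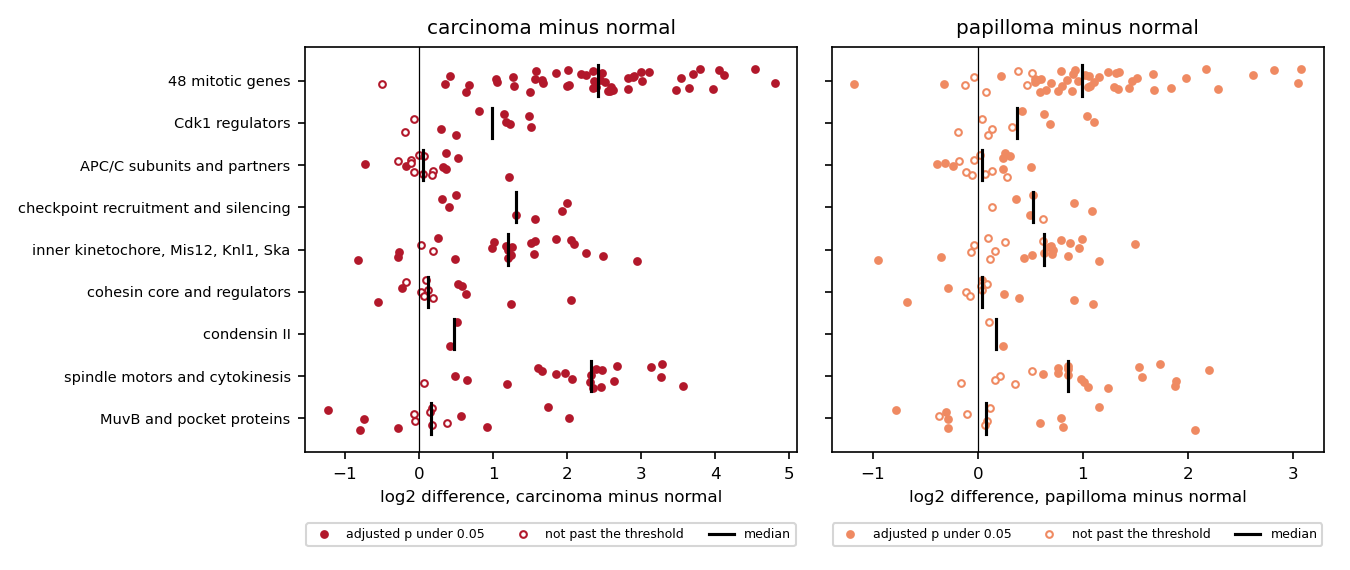
Log2 difference from normal tissue (x axes) of single genes in carcinoma (left) and papilloma (right), for the 48 mitotic genes and 8 lists of other mitotic genes down the page. Filled points passed an adjusted p of 0.05, open points did not, and the bar is the median, which is 2.42 and 0.99 for the 48 genes and 2.32 and 0.86 for spindle motors and cytokinesis.

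The lists of the core APC/C and of cohesin had medians near 0. Of 16 APC/C subunits and partners, 5 rose and 2 fell in carcinoma, 5 rose and 3 fell in papilloma, and the medians were 0.06 and 0.04. The lower counts lie near the 19.2% and 16.3% of all genes that were lower. The APC/C inhibitor Fbxo5 rose by 1.21 in carcinoma, and the subunit Anapc13 was lower there (-0.73). Of 13 genes of cohesin and its regulators, 5 rose and 2 fell in carcinoma and 4 rose and 2 fell in papilloma, with medians of 0.12 and 0.04. Cdca5, sororin, which locks cohesin on sister chromatids, rose by 2.05 in carcinoma and 0.92 in papilloma, and the cohesin deacetylase Hdac8 by 1.24 and 1.10. Esco1, the relative of Esco2 that acts through interphase, was lower in carcinoma (-0.55) and in papilloma (-0.68). Besides Ncapg2, both other measured condensin II subunits rose in carcinoma, Ncapd3 by 0.51 and Ncaph2 by 0.42.

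Of 10 Cdk1 regulators, 8 rose in carcinoma and 5 in papilloma, and 0 fell. The Greatwall kinase Mastl rose by 1.51 in carcinoma and Cks1b, the relative of Cks2, by 1.49 in carcinoma and 1.04 in papilloma. Of 14 MuvB components, pocket proteins and their partners, 4 rose and 4 fell in carcinoma, and 5 rose and 4 fell in papilloma. Without Cdkn1a, which is on this list, 4 rose and 3 fell in carcinoma, and 4 rose and 4 fell in papilloma. Over all genes 18.7% were higher and 19.2% lower in carcinoma, and 17% higher and 16.3% lower in papilloma. The medians of all 14 listed genes were 0.16 in carcinoma and 0.08 in papilloma. The pocket protein p107, Rbl1, rose by 2.02 in carcinoma, and the MuvB subunit Lin9 by 1.74 in carcinoma and 1.15 in papilloma, while the MuvB subunit Lin52 was lower in carcinoma (-1.23) and in papilloma (-0.78).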

How the data were processed

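Total RNA of 15 snap-frozen tissues was labelled with biotin and hybridised to 1 Affymetrix array each. The authors deposited log2 values made with RMA in Affymetrix Expression Console, per the submitters' processing notes, which give no versions. RMA subtracts background, gives all arrays a shared intensity distribution and summarises probes per probe set, so differences of dim probe sets are understated and a change in total RNA per cell cannot be seen. Arrays have no read depth, and their number limits the precision. Of 41345 probe sets (190 controls), a pairing table gave 23521 exactly 1 symbol, 1814 several and 16010 none, and 23328 matched a RefSeq gene. The brightest probe set stood for each of 22180 genes (1082 had more than 1).

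limma 3.58.1 in R 4.3.3 fitted the group as the only term to all 15 arrays (12 residual and 3.35 prior degrees of freedom). The p-values are two-sided, adjusted by Benjamini-Hochberg over all 22180 genes, with a threshold of 0.05. SDs are over 5 arrays. The labels call them biological replicates and say no more of their mice, so p-values measure the spread between these samples. The fit was tested on simulated data. No 2 arrays of a group were copies of each other (r = 0.977 to 0.996). The alternatives were the replicate number as a block, robust moderation with a variance trend, only the groups compared, a common median, quantile normalization, a filter on dim genes, the average over a gene's probe sets, all probe sets, removal of chromosome medians, leaving out each array, leaving out normal arrays 2 to 5 and, added after seeing the data, leaving out papilloma arrays 2 and 4. The genes and lists were chosen with earlier results of these data known, so their counts are descriptions. By the naming rule, values in every array were given for genes with the 2 largest or smallest differences of a comparison, called in opposite directions or not called. Other listed genes were named by role, and of other lists up to 3 called genes with the largest changes one way and 1 the opposite way. Up to 4 promoters of genes the results turn on were shown.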

Additional observations from a re-analysis of the deposited data

Results flagged for a closer look

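Of 144 pairs of a gene and a group, 11 held an array far from the other 4 of its group, and chance alone marks about 1 in 20 such groups. Of these, 5 were low values of papilloma 2, the array with the highest neuronal markers: Ccna2 at 9.17 (9.51 to 9.56 in the other papillomas), Bub1b at 7.23 (7.51 to 7.62), Smc4 at 9.53 (9.85 to 9.94), Tpx2 at 8.30 (8.52 to 8.55) and Prc1 at 7.87 (8.31 to 8.38). Papilloma 5 was high in Pbk at 8.94 (8.43 to 8.58 in the others) and in Sgo2a at 6.95 (6.66 to 6.73). Carcinoma 2 was high in Pttg1 at 8.66 (7.56 to 7.84 in the other carcinomas). Among normal arrays, Mad2l1 was high in array 1 at 9.51 (9.17 to 9.26 in the others), Cenpe low in array 5 at 6.02 (6.26 to 6.30) and Espl1 low in array 3 at 7.44 (7.62 to 7.70). The causes were not tested.

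Espl1 drew attention for a difference between the tumour types, being higher than normal tissue in carcinoma and lower in papilloma. The test of that difference, carcinoma minus papilloma, gave 0.67 (limma adjusted p = 0.0014).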

How the results depend on the processing

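No difference of the 48 genes that passed the threshold changed its sign under any alternative run. The 48 genes had 2928 alternative values in all, of which 79 ended a call and 20 made one. Counts of the 48 genes over leaving out each array were 46 to 47 called for carcinoma against normal tissue (46 to 47 higher, 0 to 1 lower), 39 to 42 for papilloma against normal tissue (38 to 40 higher, 1 to 2 lower) and 44 to 46 for carcinoma against papilloma (44 to 46 higher, 0 to 0 lower). Over all genes these fits called 3803 to 4290 higher and 3816 to 4455 lower, 3376 to 3647 and 3263 to 3513, and 1081 to 1637 and 801 to 1401 in the same comparisons. The gene lower in carcinoma than in normal tissue, 1 with the replicate block and without carcinoma array 2, was Pttg1. In papilloma the genes lower than normal tissue numbered 1 at a common median, with quantile normalization, with all probe sets and without papilloma arrays 2 and 4, where Espl1 was lost. With normal array 1 alone, papilloma calls among the 48 genes fell to 16 (16 higher, 0 lower) and calls over all genes to 1626 higher and 1924 lower in carcinoma and 1215 higher and 1515 lower in papilloma, a fit in which the lone array was assumed to vary like the tumours. For carcinoma against papilloma, calls over all genes were 789 higher and 540 lower with only these groups fitted, and 847 and 740 without papilloma arrays 2 and 4, against 1383 and 1147. With the replicate number as a block 48, 43 and 45 of the 48 genes were called in the 3 comparisons, against 47, 42 and 45 without it. Of 15 same-numbered pairs, 2 had a correlation of deviations over 0.1 (-0.10 to 0.14), and differently numbered pairs ranged from -0.15 to 0.17. No strong signal was shared by number, but these correlations cannot show whether samples were paired.

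Precision is limited by 5 arrays per group and by dim signal in normal tissue, where small differences are compressed. Normal arrays 2 to 5, which held both Xist and Y-linked transcripts, matter most for papilloma, where 16 of 42 calls passed without them, in a fit with fewer arrays.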
